A study of Homo sapiens with 5 samples.

Results

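Imprinted genes were followed in HEK293, a cell line made from human embryonic kidney. The 10 genes were PEG10, PEG3, MEST, NDN, SNRPN, H19, IGF2, CDKN1C, DLK1 and MEG3, looked up by symbol among the 24497 gene rows of the deposited count table. Of the 10, 7 had a row, and PEG3, NDN and MEG3 had none in the table used here, nor under an older symbol. Batch B held 3 libraries and batch A held 2, all from HEK293 cells grown in DMEM with glutamine and fetal calf serum, with no treatment named. The titles of the batches carry different dates. The labels give all libraries the same amount of ERCC spike-in RNA, yet spike-in counts were 13, 1 and 19 in batch B and 1785 and 2127 in batch A, and the part of that difference in the results was not tested. Each library carried the material of 100 cells out of a lysate of 1000 cells, was primed with oligo-dT and was selected for the 5′ ends of transcripts. Libraries are called by the numbers that end the deposited column names, 1, 2 and 3 in batch B and 2 and 3 in batch A. Separate cultures are not named in the labels, so the spread behind each p-value is that between libraries and may be technical.

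Genomic imprinting is the expression of a gene from a single parental copy, set by DNA methylation that is laid down in the egg or the sperm and kept in the cells of the body. Imprinted genes lie in clusters, in which paternally expressed genes often sit beside maternally expressed ones under one control region. Many of them act in fetal and placental growth. The counts carry no allele information, so levels are summed over both parental copies and the imprint itself was not measured.

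Gene counts came to 373687, 575472 and 685181 in batch B libraries 1, 2 and 3, and to 686883 and 803168 in batch A libraries 2 and 3. A count of 0 allows up to 8.03 CPM (gene counts scaled to a library total of 1000000) in the shallowest library and 3.74 CPM in the deepest, taking 3 counts as the limit, and up to 0.960 CPM over all 5 libraries together. All 9 HEK293 markers examined, such as VIM and NEFL, had counts, at a sum of 751 to 832 CPM in batch B and 687 to 698 CPM in batch A. The sum was uneven, with 205 to 343 counts per library for VIM and 1 to 4 for PAX2. INA was at 0 in batch B library 2. Markers of blood cells, hepatocytes and placental trophoblast summed to 0 to 3.48 CPM, with CD3E and ALB at 0. The blood markers PTPRC and HBB and the trophoblast markers CGB and PSG1 had no row. Those sums thus rest on CD3E and LYZ for blood cells and on KRT7 alone for trophoblast. Markers of fibroblasts summed to 13.4 to 24.8 CPM in batch B and 4.37 to 11.2 CPM in batch A. In bulk libraries, fewer cells of a type and less RNA per cell cannot be told apart.

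Imprints are carried by methylated CG dinucleotides, and 5′ selected reads begin at transcript starts, so the 250 bases before the start are shown for the 3 genes that have both a row in the count table and an entry in the RefSeq promoter table (GRCh38.p14). The capitals mark each CG, and the window with the most of them is given where a gene has several.
H19: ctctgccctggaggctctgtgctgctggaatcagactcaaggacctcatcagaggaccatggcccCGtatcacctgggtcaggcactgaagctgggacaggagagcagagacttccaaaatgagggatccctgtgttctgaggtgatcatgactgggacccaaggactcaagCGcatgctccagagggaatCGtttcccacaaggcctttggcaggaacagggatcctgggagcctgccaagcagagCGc
MEST: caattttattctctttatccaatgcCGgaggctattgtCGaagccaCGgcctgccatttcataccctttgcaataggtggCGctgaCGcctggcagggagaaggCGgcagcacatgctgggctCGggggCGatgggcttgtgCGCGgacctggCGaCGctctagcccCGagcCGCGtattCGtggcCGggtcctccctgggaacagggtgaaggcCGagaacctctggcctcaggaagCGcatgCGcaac
SNRPN: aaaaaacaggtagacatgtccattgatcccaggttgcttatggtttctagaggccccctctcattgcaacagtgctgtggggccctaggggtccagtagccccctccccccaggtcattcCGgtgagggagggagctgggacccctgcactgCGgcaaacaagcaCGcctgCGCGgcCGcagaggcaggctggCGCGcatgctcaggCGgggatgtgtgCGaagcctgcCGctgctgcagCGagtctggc
The H19 window lies at chr11:2001267-2001516 on the minus strand, the MEST window at chr7:130486097-130486346 on the plus strand and the SNRPN window at chr15:24954737-24954986 on the plus strand. They hold 4, 20 and 12 CG, against a median of 11 over 35116 such windows, of which 29.3%, 67.6% and 51.5% hold fewer. H19 has 1 window, while MEST has 5, with as few as 9 CG, and SNRPN has 4, with as few as 1, so the windows shown are the upper end for those 2 genes. On either strand, GGGCGG is found in 0 of 1 H19, 2 of 5 MEST and 1 of 4 SNRPN windows, none of them shown, and in 42.6% of all windows. TATAAA is found in 0 of these 10 windows and in 10.7% of all windows. NDN and MEG3 also have entries, and PEG10, PEG3, IGF2, CDKN1C and DLK1 do not.

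Counts were found for 3 of the 7 genes with a row, CDKN1C, H19 and IGF2, all in the imprinted region 11p15 of chromosome 11. The other 4, PEG10, MEST, SNRPN and DLK1, were listed at 0 in every library. Batch B libraries 1, 2 and 3 had counts for 2, 3 and 3 of the 7, and batch A libraries 2 and 3 for 1 and 2. Thinned to the depth of the shallowest library, the numbers averaged 2, 2.65 and 2.4 in batch B and 1 and 1.75 in batch A over 20 draws.

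**Figure D1:**
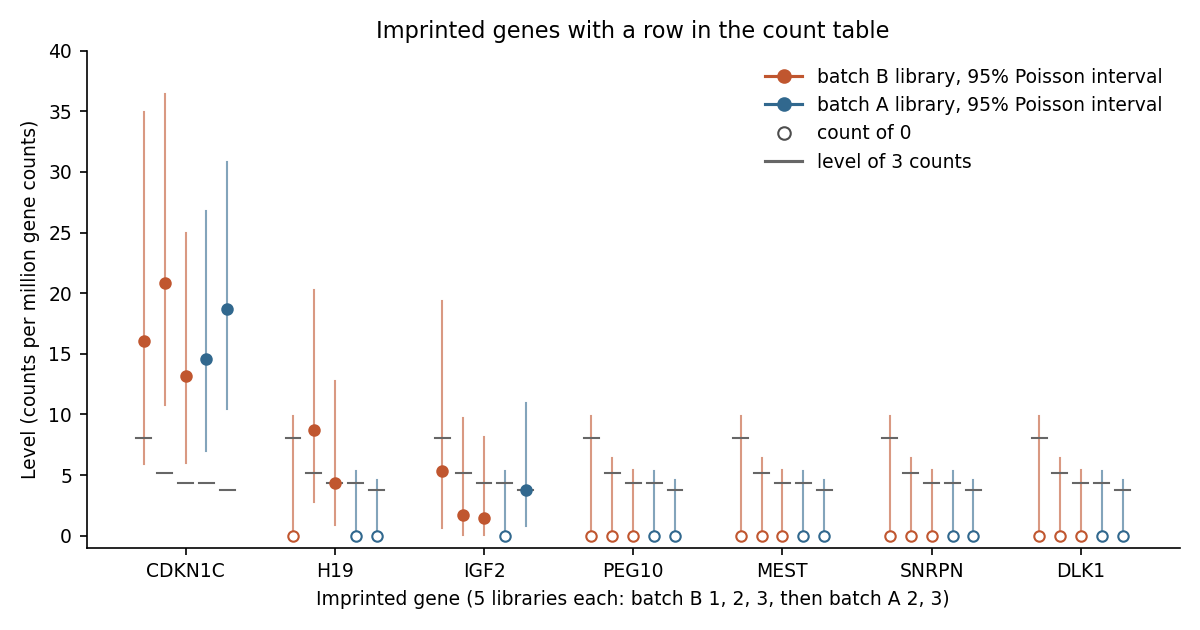
Level in CPM of the 7 imprinted genes with a row, with 1 point per library, batch B libraries to the left of batch A libraries and exact 95% Poisson intervals as bars. CDKN1C lies above the level of 3 counts in all 5 libraries, H19 is at 0 in 3 libraries and IGF2 in 1, and the 4 others are at 0 throughout.

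CDKN1C, a maternally expressed inhibitor of cyclin-dependent kinases (p57) that restrains fetal growth, was the one gene with counts in all 5 libraries. It had 6, 12 and 9 counts in batch B libraries 1, 2 and 3, against 10 and 15 in batch A libraries 2 and 3. That made 16.1, 20.9 and 13.1 CPM in batch B and 14.6 and 18.7 CPM in batch A. The ranges of the batches overlapped, and the lowest and the highest value both fell in batch B. The highest level lay inside the exact Poisson interval of the lowest, 6.01 to 24.9 CPM, so the 5 libraries could not be told apart at this depth. Pooled over the libraries, 52 counts gave 16.6 CPM (95% exact Poisson interval 12.4 to 21.8). Such intervals cover counting error only. By mean CPM, not divided by length, CDKN1C ranked 8261 among the 24497 gene rows, and 66.3% of rows lay below it.

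H19, a maternally expressed long non-coding RNA that shares its control region with IGF2, had 0, 5 and 3 counts in batch B libraries 1, 2 and 3, against 0 and 0 in batch A. In CPM that was 0, 8.69 and 4.38 in batch B. All 8 counts thus fell in 2 of the 3 batch B libraries, and the remaining one, library 1, had the lowest depth of all. Pooled by batch, the level was 4.89 CPM in batch B (95% exact Poisson interval 2.11 to 9.64), against 0 in batch A (0 to 2.48). These intervals overlapped, and the low-count filter kept H19 out of the test. Without that filter, edgeR gave an unadjusted p = 0.0113 and an adjusted p = 0.276, so it was not called.

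Counts of some fibroblast markers fell in the same 2 libraries as those of H19. LUM, a matrix proteoglycan, had 0, 2 and 2 counts in batch B libraries 1, 2 and 3. COL3A1, a fibrillar collagen, had 0, 1 and 2, and DCN, another matrix proteoglycan, had 0, 1 and 0 in the same batch B libraries, while all 3 markers were at 0 in batch A. COL1A1, the other marker on that list, was in all libraries, with 5, 4 and 13 counts in batch B and 3 and 9 in batch A. These are very low counts, and their part in the counts of H19 was not tested.

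IGF2, a paternally expressed fetal growth factor, shares enhancers with H19. IGF2 counts were 2, 1 and 1 in batch B libraries 1 to 3, against 0 and 3 in batch A libraries 2 and 3. In CPM that was 5.35, 1.74 and 1.46 in batch B and 0 and 3.74 in batch A. The batches overlapped, and no library had more than 3 counts. Pooled, 4 counts gave 2.45 CPM in batch B (95% exact Poisson interval 0.667 to 6.27) and 3 counts gave 2.01 CPM in batch A (0.415 to 5.88). The test without a low-count filter gave an adjusted p = 0.962 (edgeR). In the GENCODE 29 annotation IGF2 shares exon sequence with the read-through gene INS-IGF2 on its own strand and with IGF2-AS on the other, so its counts are uncertain, and that annotation holds 2 genes named IGF2.

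Per kilobase of the longest GENCODE 29 transcript (1936 bases for CDKN1C, 2348 for H19 and 5585 for IGF2), the order of the pooled levels was CDKN1C at 8.60 CPM per kb, H19 at 1.09 and IGF2 at 0.401. The 95% exact Poisson interval of CDKN1C, 6.42 to 11.3, lay above those of H19, 0.471 to 2.15, and IGF2, 0.161 to 0.827. H19 and IGF2, neighbours in that order, had overlapping intervals. Reads selected for 5′ ends need not grow in number with transcript length, and by CPM alone the order of the mean levels was the same, at 16.7 ± 3.12, 2.61 ± 3.89 and 2.46 ± 2.1 CPM (SD, n = 5 libraries). The order of H19 and IGF2 by CPM turned round without batch B library 2 or without batch B library 3, where H19 was at 1.09 and 2.17 CPM and IGF2 at 2.64 and 2.71 CPM.

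The rows with the most similar levels over the 5 libraries, by Euclidean distance of log2(CPM + 1), were FBLIM1 and KCNC4 for CDKN1C, at distances of 0.17 and 0.22. For H19 they were FGF17 and PRDM11, each at 0.54 and each with 0, 4 and 2 counts in batch B and 0 and 0 in batch A. OGFOD2 had the same counts as IGF2 in every library, and CDHR3 lay at 0.34. A distance under 1 was reached by 599 rows for CDKN1C, 10 for H19 and 23 for IGF2.

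**Figure D2:**
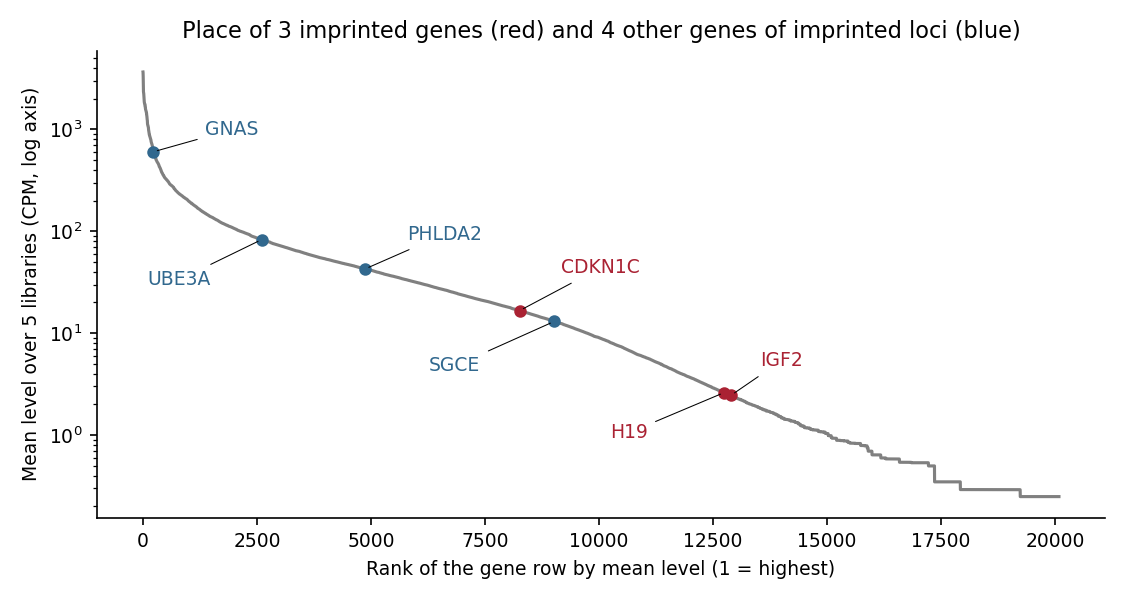
Mean level over the 5 libraries, in CPM on a log axis, against the rank of the gene row among rows with a count. CDKN1C stands at rank 8261, H19 at 12747 and IGF2 at 12896, while GNAS, UBE3A and PHLDA2, other genes of imprinted loci, stand higher on the curve. SGCE, a further gene of an imprinted locus, stands between CDKN1C and H19.

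PEG10, a paternally expressed gene derived from a retrotransposon with a gag-like protein and a ribosomal frameshift, was listed at 0 in all 5 libraries. So were MEST, a paternally expressed gene for a hydrolase-fold protein, SNRPN, a paternally expressed gene for the Sm protein SmN, and DLK1, a paternally expressed ligand of the Notch family. For each, 0 of 3124391 gene counts allows up to 0.960 CPM, if the row counts all of that gene's reads. The share of rows at 0 was 4 of 7 among these genes, against 18.0% of all gene rows and 9.01% of 14296 coding rows matched by name to GENCODE 29.

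A 0 in the table need not mean that a transcript was missing from the cells. EEF1G, the gamma subunit of elongation factor 1 that every cell uses, was also listed at 0 in all 5 libraries, as was DDX47, a helicase of ribosome synthesis. Both were chosen after their values were seen. The other subunits of that factor had 541 to 1093 counts (EEF1A1), 244 to 649 counts (EEF1B2) and 114 to 278 counts (EEF1D) per library. How reads that match more than 1 gene were counted is not given in the sources used here.

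In GENCODE 29, exons of SNRPN overlap those of SNURF and SNHG14 on the same strand, exons of PEG10 overlap those of SGCE on the opposite strand, and exons of MEST overlap those of MESTIT1 and COPG2 on the opposite strand. DLK1, also at 0, and CDKN1C, with counts in every library, overlap no other gene. EEF1G and DDX47 each overlap 1 gene on the same strand. Over coding rows, 13.9% of the 1288 rows at 0 and 15.5% of the 13008 rows with a count had such a same-strand overlap. The part of overlaps in the 4 rows at 0 was not tested.

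PEG3, a paternally expressed zinc finger gene, NDN, the paternally expressed gene for necdin of the MAGE family, and MEG3, a maternally expressed long non-coding RNA, had no row, so no level or limit can be given for them. Of 20052 coding genes in RefSeq, 25.2% had no row under a current or older symbol.

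The loci around the 10 genes were described with a list of 95 other genes, chosen from knowledge of human imprinting, some of which are neighbours whose imprinting differs between tissues. Of these, 61 had a row, 51 had a count and 10 were listed at 0, which is 16.4% of the rows against 18.0% of all rows. The remaining 34, or 35.8% of the list, had no row. Among RefSeq coding genes that share was 25.2%, but the list also holds non-coding genes.

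Around PEG10 on 7q21, SGCE, the paternally expressed epsilon-sarcoglycan gene that starts next to PEG10 on the other strand, had 6, 8 and 8 counts in batch B and 11 and 6 in batch A. PON2, a paraoxonase gene, had 10, 15 and 27 counts in batch B and 31 and 32 in batch A. The SGCE row thus had counts in every library in which PEG10 was at 0. Around MEST on 7q32, COPG2, a coatomer subunit, had 5, 5 and 7 counts in batch B and 5 and 6 in batch A, and CEP41, a centrosomal protein, had 7, 29 and 34 in batch B and 28 and 26 in batch A.

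Around SNRPN and NDN on 15q11, UBE3A, a ubiquitin ligase that is imprinted in neurons and expressed from both copies in most other cells, had 30, 44 and 63 counts in batch B and 55 and 69 in batch A. MKRN3, a paternally expressed makorin gene, had 1, 1 and 1 in batch B and 2 and 0 in batch A, and SNHG14, the long RNA that reads through SNRPN, had a single count, in batch B library 2. Of 14 other genes of that region 11 had no row, while all 7 of its neighbours outside imprinting had counts. CYFIP1, one of those neighbours, was at 48.7 ± 12.4 CPM in batch B and 64.2 ± 4.3 CPM in batch A (SD, n = 3 and 2). The paternally expressed genes of 15q11 with a row, SNRPN, MKRN3 and SNHG14, thus had 0 to 2 counts in each library.

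The region 11p15, home of CDKN1C, H19 and IGF2, had counts for 12 of 14 other rows. PHLDA2, a maternally expressed placental growth regulator, was at 39.2 ± 5.44 CPM in batch B and 47.9 ± 4.34 CPM in batch A. KCNQ1OT1, the paternally expressed RNA that silences CDKN1C and its neighbours in cis, had 8, 14 and 13 counts in batch B and 6 and 15 in batch A. It lies within KCNQ1 on the other strand, and without a stated strand setting its counts and the 2 counts of KCNQ1 cannot be told apart. CD81 and MRPL23, the most abundant other genes of the region, were at 435 ± 20.3 and 302 ± 6.03 CPM in batch B. In batch A they were at 417 ± 48 and 348 ± 55.6 CPM. Around DLK1 and MEG3 on 14q32, WDR25 had 3, 5 and 10 counts in batch B and 8 and 15 in batch A, and BEGAIN had 0, 1 and 1 in batch B and 1 and 1 in batch A. On 19q13, the sole row was that of ZNF264, with 4, 2 and 2 counts in batch B and 2 and 2 in batch A.

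**Figure D3:**
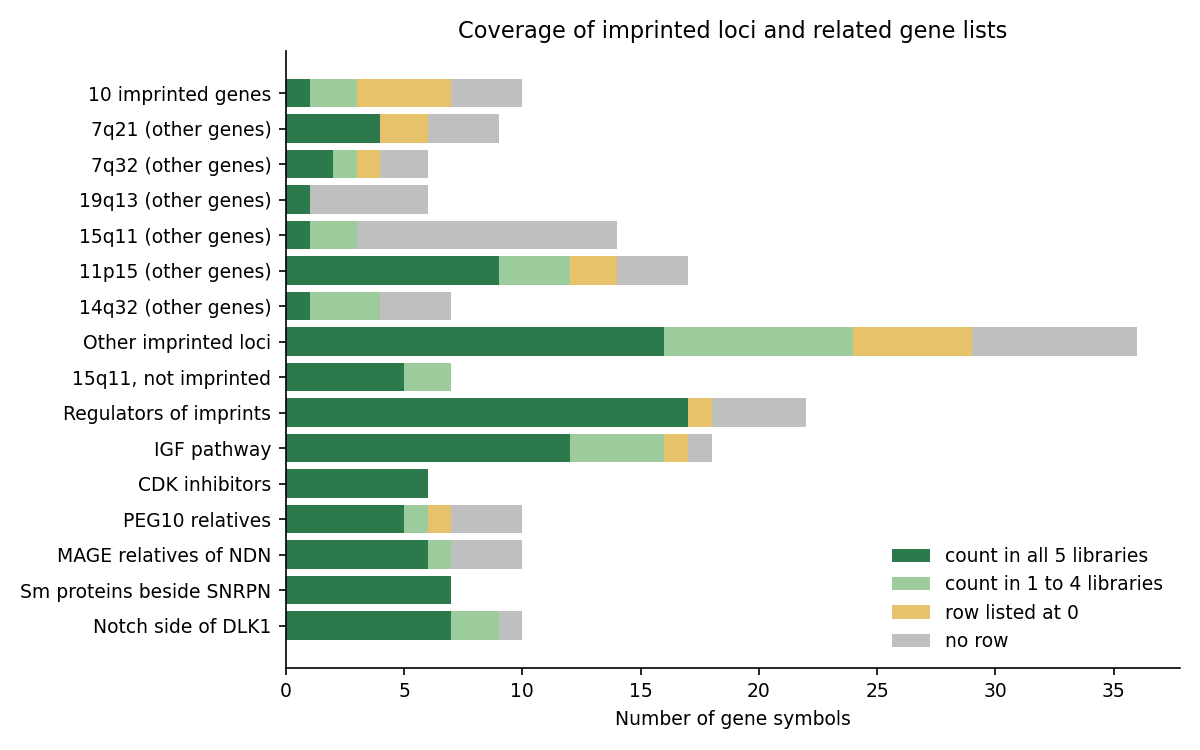
Number of gene symbols with a count in all 5 libraries, with a count in 1 to 4 libraries, with a row listed at 0 and without a row, for the 10 imprinted genes, the other genes of each imprinted locus and related lists. The 10 imprinted genes hold 4 rows at 0, and 11 of 14 other genes of 15q11 have no row.

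Among other imprinted loci, GNAS, the G protein alpha subunit gene whose imprinted promoters differ in parental origin, was at 618 ± 5.98 CPM in batch B and 579 ± 17.4 CPM in batch A. HM13, a signal peptide peptidase whose intron holds an imprinted retrogene, was at 165 ± 13.7 CPM in batch B and 187 ± 1.17 CPM in batch A (SD, n = 3 and 2). Some relatives of the genes without counts or without a row were present, of which the most abundant are given. SNRPD2 and SNRPE, Sm proteins that assemble with SmN or its close relative SmB, averaged 1083 and 890 CPM over the 5 libraries. FAM127B and FAM127A, of the retroposon-derived family of PEG10, averaged 148 and 133 CPM, and MAGED1, of the MAGE family of necdin, averaged 223 CPM. Other relatives of PEG10 were listed at 0 (RGAG1) or had no row (RTL1, ZCCHC5 and ZCCHC16). In the MAGE family, MAGED4 had a single count, and MAGEL2, MAGED4B and MAGEA4 had no row. In the comparison of batch B with batch A, edgeR called 0 of 7 tested Sm proteins, 0 of 5 relatives of PEG10 and 0 of 6 MAGE genes, against 4.2% of all tested genes. At an unadjusted p under 0.05 stood 1, 0 and 0 of them, against 16.4% of all tested genes.

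Setting batch B against batch A asks how far levels in one cell line depend on the batch. Among the imprinted genes, CDKN1C was the only one abundant enough for the test over 9215 genes. It averaged 16.7 ± 3.9 CPM in batch B and 16.6 ± 2.91 CPM in batch A (SD, n = 3 and 2), with a log2 fold change of 0.0073 (SE 0.47) and an edgeR adjusted p = 0.997. Its approximate 95% interval ran from -0.91 to 0.92, so a change within that range was not excluded at this depth. That interval is not adjusted for the number of tests, and a call would have needed a larger change. Across all tested genes 387 were called, or 4.2%, with an adjusted p under 0.05 as the threshold. The DESeq2 Wald test called 111 of the 3150 genes it gave an adjusted p, or 3.52%. Leaving out batch A library 2 gave 138 calls, leaving out batch A library 3 gave 152, and leaving out batch B library 2 gave 202.

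Of the 95 other genes of imprinted loci 24 were tested, with a median log2 fold change of 0.03 against 0.0040 over all tested genes. Of these 24, edgeR called 0, against 4.2% of all tested genes. A single one, GRB10, had an unadjusted p under 0.05, against 16.4% of all tested genes. Of these genes limma-voom called 0 of 24, against 3.85% of all tested genes. DESeq2 called 0 of the 6 it gave an adjusted p, against 3.52% of all genes with an adjusted p. By each tool 1 gene stood at an unadjusted p under 0.05. GRB10, an adaptor protein that damps insulin receptor signalling and is imprinted by tissue, had 10, 25 and 31 counts in batch B and 48 and 50 in batch A. That made 38.5 ± 10.2 CPM in batch B and 66.1 ± 5.39 CPM in batch A, a log2 fold change of -0.69 (SE 0.25) with an edgeR adjusted p = 0.0897. It did not pass the test.

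**Figure D4:**
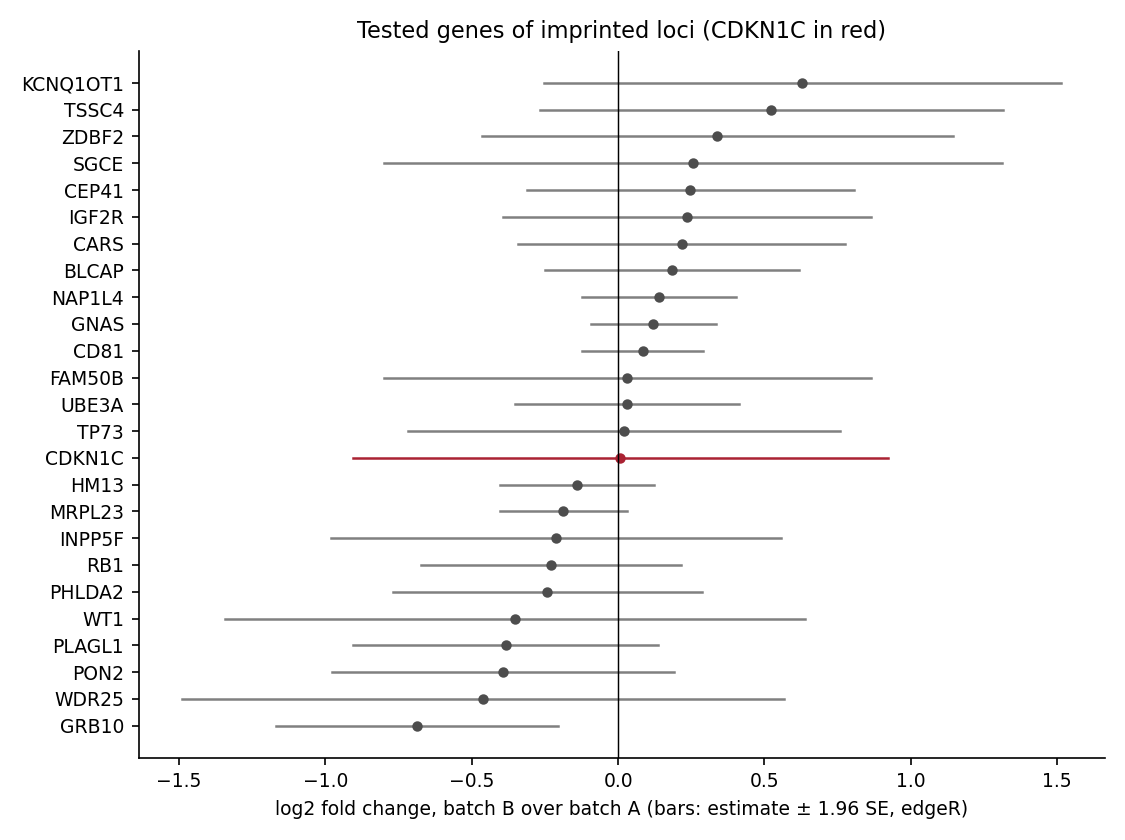
Log2 fold change of batch B over batch A from edgeR for CDKN1C and the 24 other tested genes of imprinted loci, with bars for the approximate 95% interval. CDKN1C lies at 0.0073, and GRB10, at -0.69, is the one gene whose bar does not reach 0.

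Regulators of imprints, a list that also holds the TET genes, which oxidise methylated cytosine, were present in part. Of 22 such genes 17 had counts in every library, CTCFL was listed at 0, and ZFP57, DNMT3L, DPPA3 and ZFP42 had no row. DNMT1, the maintenance DNA methyltransferase, was at 166 ± 21.6 CPM in batch B and 127 ± 7.4 CPM in batch A. Of 15 tested, 2 were called higher in batch B, against 2.15% of all tested genes, and 0 lower, and their median was 0.14 on the log2 scale. TRIM28, the corepressor that KRAB zinc finger proteins bring to imprinted control regions, had 225, 326 and 382 counts in batch B and 327 and 356 in batch A, and rose by 0.34 on the log2 scale (SE 0.11, edgeR adjusted p = 0.0426). TET1, which oxidises methylated cytosine, had 21, 41 and 36 counts in batch B and 20 and 31 in batch A, and rose by 0.83 (SE 0.26, edgeR adjusted p = 0.0417). Both calls were lost in 4 of the 5 fits that left out a library, all but the one without batch B library 3, with edgeR's adjusted p as high as 0.453 for TRIM28 and 0.328 for TET1. They were also lost without the low-count filter (edgeR adjusted p = 0.121 and 0.117) and after thinning (0.204 and 0.202), TRIM28 with DESeq2 (0.0648) and TET1 with library totals (0.0529) or limma-voom (0.0539).

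In the pathway of insulin-like growth factors, IGF1 was listed at 0 and the receptors had counts in every library. IGF1R, the signalling receptor, had 19, 30 and 33 counts in batch B and 26 and 40 in batch A, and IGF2R, which takes up IGF2 for breakdown, had 14, 22 and 21 in batch B and 18 and 27 in batch A. Of 9 tested genes 1 rose, against 2.15% of all tested genes, and the median log2 fold change was 0.21. IGF2BP1, an RNA-binding protein first known from IGF2 mRNA, had 89, 126 and 143 counts in batch B and 88 and 132 in batch A, and rose by 0.60 (SE 0.13, edgeR adjusted p = 0.000783). Leaving out batch A library 2 ended that call (edgeR adjusted p = 0.1399). Among the other CDK inhibitors 0 of 4 tested genes were called by edgeR, against 4.2% of all tested genes, with 1 at an unadjusted p under 0.05 and a median log2 fold change of 0.01, and CDKN2A was at 332 ± 2.34 CPM in batch B and 266 ± 25.5 CPM in batch A (edgeR adjusted p = 0.0522). On the Notch side of DLK1, 1 of 6 tested genes was higher in batch B, against 2.15% of all tested genes, with a median of 0.44 on the log2 scale. It was the target gene HES1, which rose by 0.57 (SE 0.11, edgeR adjusted p = 3.39e-05), with 424 ± 39.5 CPM in batch B and 286 ± 19.7 CPM in batch A (SD, n = 3 and 2).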

How the data were processed

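Per the labels, HEK293 RNA was sequenced as 5′ selected, oligo-dT-primed libraries with 18 cycles of PCR. The authors deposited raw counts for each gene. The tools cutadapt 1.2.1 and STAR 2.4.0a and the builds hg19 and GRCh37 are listed in the submitters' processing notes. The sources used here do not say how reads were counted, whether molecular identifiers were collapsed, or which annotation and strand setting served. Gene symbols are those of the table, which gives no other identifier, and no coordinates are given for rows, since the annotation used is on another build.

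Of 24549 rows, 52 spike-ins were left out of all totals, and no column was unused. Each column's batch came from the date prefix that it shares with the sample titles. CPM was computed from gene counts. Batch B was compared with batch A by edgeR 4.0.16 in R 4.3.3 (filterByExpr, TMM, quasi-likelihood test, Benjamini-Hochberg over 9215 genes). The same fit was also run on simulated data, with the outcome not reported here. Alternatives were DESeq2 1.42.0 (all rows), limma-voom (limma 3.58.1), other scalings and filters, thinning and leaving out libraries. With 1 batch A library left, it is assumed to vary like batch B.

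The 10 genes and the lists were chosen with earlier results of these data known. Named were all 10 genes, the 2 most abundant other genes of each locus, called genes, and the 2 rows nearest in level. Other genes named, such as EEF1G, DDX47, GRB10 and the fibroblast markers with counts, and those cited for their role beside a named gene, were chosen after their values were seen. Exon overlaps and transcript lengths came from GENCODE release 29, matched by name for 18015 rows. List entries that repeat a gene under a second symbol were counted once.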

Additional observations from a re-analysis of the deposited data

How the results depend on the processing

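The number of imprinted genes with a count was 3 in each alternative run (thinning, a minimum of 3 counts, and each library left out), and the number called was 0 in each, although CDKN1C did not pass the filter after thinning or at a mean count of at least 20, and DESeq2 gave it no adjusted p. Its log2 fold change ran from -0.21 without batch B library 2 to 0.22 without batch B library 3, and its mean level from 15.6 to 17.5 CPM. H19 ranked 2 to 3 and IGF2 2 to 3 when single libraries were left out. The calls over all genes were 387 of 9215, against 111 of the 3150 genes with an adjusted p in the DESeq2 Wald test (4.2% and 3.52%), 199 after thinning (a single draw) and 138 to 333 when a library was left out. Fewer reads or libraries enter the fits after thinning or with a library left out, and DESeq2 gave fewer genes an adjusted p. With library totals in place of TMM, 178 calls were higher and 232 lower, against 198 and 189. No paired analysis was possible because the columns of batch A are numbered 2 and 3 while its labels number the replicates otherwise. Matching numbers alone would not have made pairs either. The batches carry different dates, and the labels link no batch A library to a batch B library. With counts this low, depth limits each statement on H19 and IGF2.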
